A study of Homo sapiens with 8 samples.

Results

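The genes described here are the long noncoding RNA genes whose symbol is LINC followed by digits. They were taken by name from the authors' deposited expression table, leaving out any name with a hyphen, which gave 63 of the 1950 listed genes. RNA sequencing had been done on 8 libraries of K562, an established human chronic myeloid leukemia line with erythroid and megakaryocytic potential. The 4 extract libraries (1 to 4) came from K562 cells given Caulis Polygoni Multiflori (CPM), the stem of a medicinal plant, at 80 µg/mL for 3 days. The 4 control libraries (2 to 5) came from K562 cells without CPM, with no culture time stated for them. Both groups shared the cell line, the medium with 10% serum and antibiotics, the TRIzol extraction and the TruSeq library kit. The treatment protocol was a single text for all libraries, so the groups rest on the treatment label alone. Nothing in the labels tied a library to a culture of its own. The p-values here thus set group differences against the spread among these libraries, and that spread can be technical.

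A LINC symbol is a systematic name given to a long noncoding RNA gene that lies between protein-coding genes and has no name from a known function. Such RNAs are transcribed by RNA polymerase II, and most are spliced and polyadenylated like messenger RNAs. As a class they are known for low abundance and for being restricted to few cell types. A minority have a described role, for example as scaffolds for chromatin or repair proteins, or through the act of transcription next to a neighbouring gene.

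The table bears on how every count here can be read. No deposited p-value was above 0.0499 and every deposited change was at least 1.5-fold between the same libraries, so all 63 LINC genes had been chosen for a difference between extract and control. A test of that difference on these genes is a description and not independent evidence. Of the 12 markers fixed for K562, HBZ was listed, with a higher mean with the extract, and the other 11 were not analysed here. Markers of other blood cells were listed for megakaryocytes (2 of 8, ITGA2B and GP1BB), monocytes (1 of 4, CD68) and T cells (1 of 3, CD3D), all 4 with lower means with the extract, and their part in the LINC values was not tested. In such bulk RNA, fewer cells that express a gene and less of its RNA per cell cannot be told apart.

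The 5 promoters shown here are of LINC genes named below, 3 with lower and 2 with higher values with the extract. LINC01088 had the highest value of the group, LINC00659 the largest fold among the falls that could be tested, and LINC01003 is a fall with a CpG-rich start. LINC02175 and LINC01134 had higher values with the extract, but the result of LINC02175 depended on single libraries and LINC01134 was too low to be tested. LINC00342, the largest tested rise, had no promoter in the RefSeq source and is not shown. Each sequence runs 5′ to 3′ on the gene's strand, from 250 bases before to 50 bases after the start annotated by RefSeq (GRCh38.p14). Capitals mark matches, on either strand, to any of 5 short strings, none of which contains another. The string of GATA factors was AGATAA. The E-box bound by MYC was CACGTG. The TATA box was searched for as TATAAA. The other strings were CCAAT, bound by the factor NF-Y, and that of ETS factors, which was GGAAGT.
LINC01088 (chr4:78971498-78971797, + strand): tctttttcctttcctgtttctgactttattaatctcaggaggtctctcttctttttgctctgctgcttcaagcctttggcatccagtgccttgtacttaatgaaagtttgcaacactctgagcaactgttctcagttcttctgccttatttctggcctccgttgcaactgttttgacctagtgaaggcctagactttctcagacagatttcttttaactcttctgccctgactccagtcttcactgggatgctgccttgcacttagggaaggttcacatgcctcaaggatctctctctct
LINC00659 (chr20:62776807-62777106, - strand): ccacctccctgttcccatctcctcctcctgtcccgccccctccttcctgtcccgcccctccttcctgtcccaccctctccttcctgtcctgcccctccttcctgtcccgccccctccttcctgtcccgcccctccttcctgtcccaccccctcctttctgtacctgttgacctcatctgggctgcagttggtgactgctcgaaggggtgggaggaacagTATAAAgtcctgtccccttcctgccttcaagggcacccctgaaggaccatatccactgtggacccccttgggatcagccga
LINC01003 (chr7:152463874-152464173, + strand): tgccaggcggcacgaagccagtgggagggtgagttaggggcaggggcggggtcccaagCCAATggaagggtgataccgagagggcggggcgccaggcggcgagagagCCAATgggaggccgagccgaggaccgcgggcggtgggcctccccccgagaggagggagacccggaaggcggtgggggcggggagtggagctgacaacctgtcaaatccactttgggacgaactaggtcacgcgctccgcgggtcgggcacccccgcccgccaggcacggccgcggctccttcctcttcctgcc
LINC02175 (chr16:25066637-25066936, + strand): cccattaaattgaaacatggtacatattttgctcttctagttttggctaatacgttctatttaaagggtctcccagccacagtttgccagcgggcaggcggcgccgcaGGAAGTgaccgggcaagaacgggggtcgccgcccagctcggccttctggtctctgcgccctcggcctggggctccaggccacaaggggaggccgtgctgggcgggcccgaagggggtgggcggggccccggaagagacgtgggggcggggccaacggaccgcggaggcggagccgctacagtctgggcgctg
LINC01134 (chr1:3900154-3900453, + strand): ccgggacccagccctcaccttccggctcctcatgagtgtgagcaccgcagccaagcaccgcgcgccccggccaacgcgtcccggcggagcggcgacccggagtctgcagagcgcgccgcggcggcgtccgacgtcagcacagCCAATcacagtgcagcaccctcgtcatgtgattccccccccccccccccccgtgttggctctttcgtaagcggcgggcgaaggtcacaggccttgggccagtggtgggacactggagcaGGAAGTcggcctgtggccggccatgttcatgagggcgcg

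These starts differ in composition. The LINC01088 window held 1 CpG and none of the 5 strings, whereas those of LINC01003, LINC02175 and LINC01134 held 28, 25 and 32 CpGs. LINC00659 had a TATAAA that began 31 bases before the start, which RefSeq places upstream of the gene as annotated in GENCODE 29. RefSeq held a promoter for 35 of the 63 LINC genes, and the first listed start of each gene was used. AGATAA was found in 5 of these 35 (14.3%), CACGTG in 1 (2.86%), TATAAA in 4 (11.4%) and CCAAT and GGAAGT in 11 each (31.4%). Over the promoters of all 27305 genes of the RefSeq table the shares were 10.5%, 7.43%, 12.0%, 35.7% and 23.2%. Over all 1578 LINC promoters of that table they were 16.7%, 5.01%, 16.3%, 36.0% and 20.3%. A match is a description of letters, and 35 promoters are too few to read a difference from these shares. The 35 windows had a median of 7 CpGs, against 4 over all LINC promoters and 14 over all genes.

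In their annotation most of the 63 were what their name says. By gene ID 62 were found in GENCODE 29 (GRCh38), on 20 chromosomes, of which 51 were typed as lincRNA, 3 as antisense, 5 as processed transcript and 3 as transcribed pseudogene. LINC02822 was not matched there. The longest transcript had a median of 2180 bases (536 to 5583) and 4 exons, and 5 genes had 1 exon. The gap to the nearest protein-coding gene had a median of 22443 bases. It was within 10 kb for 15 genes and over 100 kb for 17. Annotated overlap with a protein-coding gene was found for 4, LINC01088 with NAA11 on the opposite strand, and LINC01138, LINC00921 and LINC00261 with PPIAL4G, ZNF263 and AL121722.1 on the same strand. No source used here says whether strand was used in counting, so for these 4 the reads of both genes may be mixed. Current names differ for 2 of the 63. LINC02163 is now NIHCOLE, an RNA described as a scaffold in the repair of DNA breaks, and LINC00634 is now SMIM45, a gene for a small membrane protein. Conversely, 9 rows with another name or no name in the table now carry a LINC name and were not counted here.

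As deposited, LINC values were lower with the extract for most of the genes listed, as were most rows of the whole table. All but 1 of the 10 most abundant LINC genes were lower. Of the table's 492 rows above 1 in every library 348 were lower too, and no share was taken over rows of like abundance. The count of 10 is therefore read as no result about LINC genes. The group mean was lower with the extract for 40 of the 63 and higher for 23, where 56.4% and 43.5% of all 1950 rows were lower and higher. The 63 values summed to 239.01, 232.74, 232.06 and 239.74 in control 2 to 5 and to 160.55, 147.73, 153.1 and 155.15 in extract 1 to 4. As deposited, all 4 extract sums lay below all 4 control sums, at a ratio of group means of 0.653, and at 0.699 without LINC01088, the largest contributor. LINC genes made up 1.65% to 1.75% of the summed values of the table in control and 1.10% to 1.20% with the extract. The difference in the sum depended on the scaling. After scaling to equal table sums the ratio was 0.681, but after scaling by the libraries' median ratio it was 0.979, and the groups overlapped, with 195.9 to 206.02 in control and 189.1 to 199.1 with the extract. Those factors rest on 492 rows above 1 in every library, all chosen as changed, of which 348 had lower means with the extract. The 40 lower genes summed to 218 ± 4.20 in control and 122 ± 3.91 with the extract (SD, n = 4 each). The 23 higher genes summed to 17.8 ± 0.788 and 31.9 ± 1.497. No test is given for these sums, since the members were chosen as changed.

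**Figure D1:**
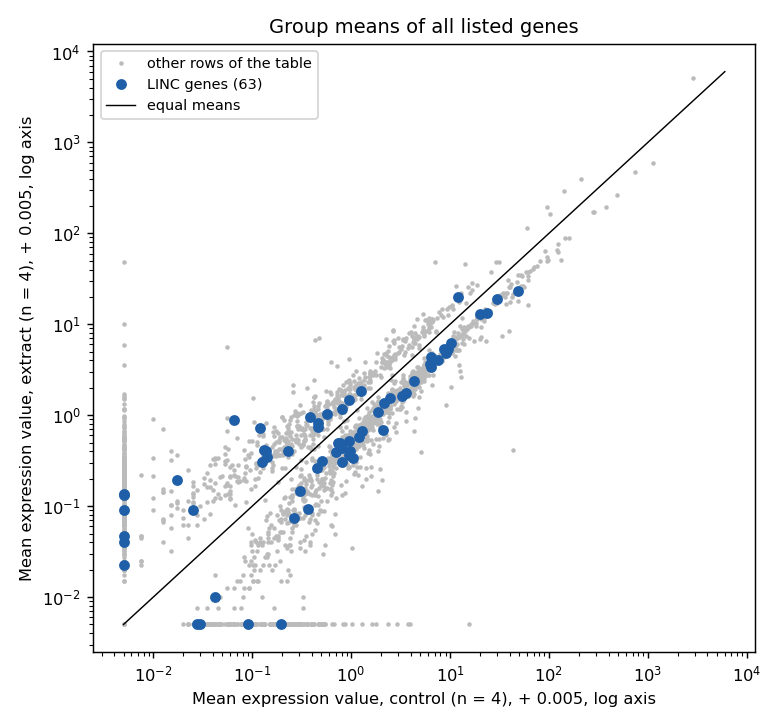
Mean expression value of each listed gene in control (x axis) and with the extract (y axis), n = 4 libraries each, on log axes with 0.005 added so that values of 0 can be drawn. Blue points are the 63 LINC genes, 40 below and 23 above the line of equal means. The sparse band along the line reflects the authors' choice of genes with a deposited change of at least 1.5-fold. It is not empty, as that change was not the plain ratio of means.

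Of the 63 LINC genes 24 reached a value of 1 in 4 or more libraries and were tested, the same share (38.1%) as in the whole table (38.5%). In limma on log2(value + 1), 3 of the 24 rose and 19 fell at an adjusted p under 0.05. In the background of 750 tested rows, 82.8% were called in all, 26.8% as higher and 56% as lower. The fit compared these libraries over rows that had all been selected for a difference, so the high share of calls, in LINC genes and in the background, is read as no result. The median log2 change was -0.63 over the 24 LINC genes and -0.50 over all 750 tested rows. The extract values lay wholly outside the control range for 34 of all 63 LINC genes, 10 above and 24 below, where 41.9% of all rows were separated, 14.6% above and 27.3% below. After scaling the libraries by their median ratio, 23 were separated, 16 above and 7 below, where 32.8% of all rows were separated, 24.2% above and 8.56% below. Of the LINC genes separated as deposited most thus lay below control, and of those separated after that scaling most lay above it. These are different sets of genes. By group means 38 LINC genes were lower and 25 higher after that scaling, against 40 and 23 as deposited. The authors' deposited table gave an adjusted p under 0.05 for 25 of the 63, where the share over all rows was 45.9%.

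**Figure D2:**
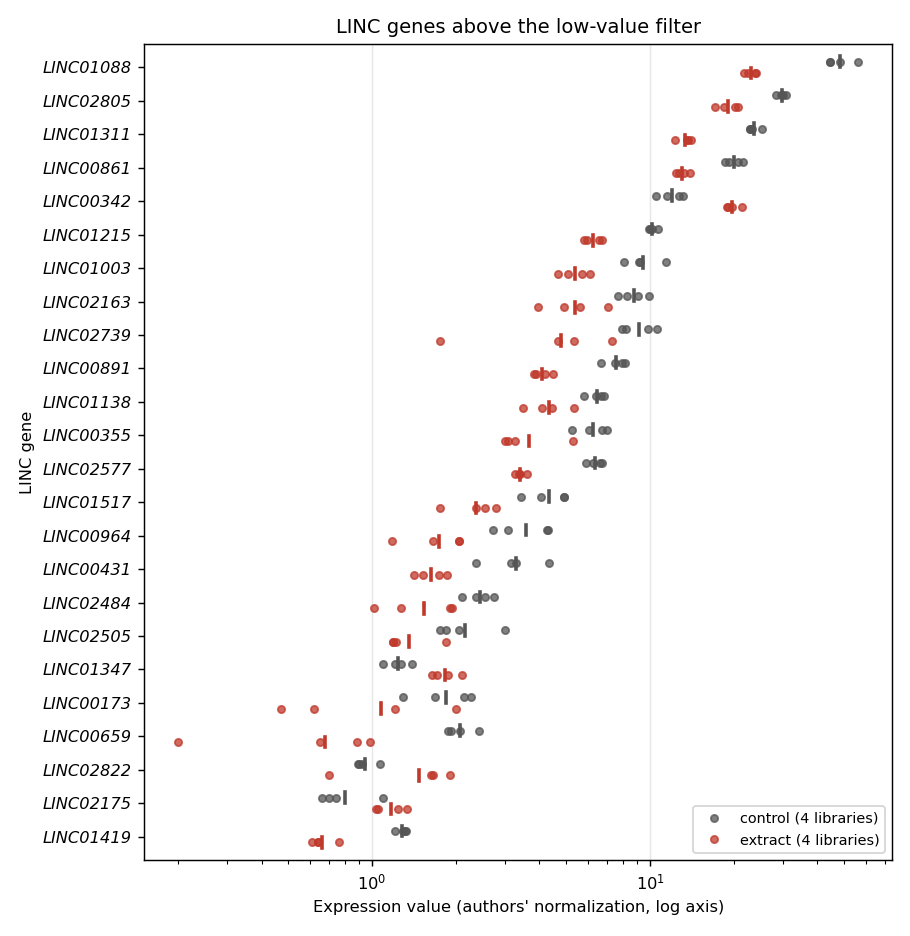
Expression values of the 24 tested LINC genes in each control library (grey) and extract library (red) on a log axis, with a vertical bar at each group mean, ordered by the mean over all 8 libraries. LINC00342 is the 1 gene with a mean above 2 whose red points lie right of the grey ones, and the groups overlap for LINC00355, LINC02505, LINC00173, LINC02822 and LINC02175.

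The tested falls were led by LINC01088, an RNA of 6 exons on chromosome 4 (78971748 to 79308798, GRCh38) whose locus overlaps NAA11, a gene for an N-terminal acetyltransferase. Its values were 56.25, 44.41, 44.49 and 48.30 in control 2 to 5 and 21.88, 22.52, 23.85 and 24.13 in extract 1 to 4. Every extract value was below 25 and every control value above 44. The mean fell 2.09-fold, from 48.4 ± 5.56 to 23.1 ± 1.07 (SD, n = 4 each), and the log2 change was -1.03 with a standard error of 0.0802 (limma adjusted p = 1.89e-05). The promoter printed for it is the CpG-poor one. With quantile normalization, which gives all libraries 1 distribution of values, its log2 change was -0.37 (adjusted p = 0.00759).

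LINC01311 on chromosome 22 (19171395 to 19172839), a single-exon RNA, lies 2736 bases from SLC25A1, the gene of the mitochondrial citrate carrier. It had 22.96, 25.32, 22.89 and 23.34 in control 2 to 5 and 14.10, 13.55, 13.72 and 12.26 in extract 1 to 4. The groups did not overlap, and the SD within each was below 2. The mean fell from 23.6 ± 1.15 to 13.4 ± 0.799, with a log2 change of -0.77 (limma adjusted p = 1.78e-05).

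LINC00659 on chromosome 20 (62774128 to 62775412), whose TATA-containing start is printed above, had the largest fold among the tested genes. Control 2 to 5 had 1.92, 1.87, 2.43 and 2.08, and extract 1 to 4 had 0.20, 0.88, 0.98 and 0.65. All extract values were under 1, with extract 1 the lowest, so the gene passed the filter through its control values alone. Its limma result is a description for that reason too. The means, 2.08 ± 0.253 and 0.677 ± 0.347, differed 3.06-fold, while the log2 change on the log2(value + 1) scale was -0.90 (limma adjusted p = 0.00169), since that scale understates changes of low genes.

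LINC02739 on chromosome 11 (59561146 to 59566074) was less even. Its values were 8.21, 9.84, 7.91 and 10.63 in control 2 to 5 and 4.67, 5.33, 1.76 and 7.33 in extract 1 to 4. Extract 4 came close to the lowest control, and extract 3 lay far below the others. The log2 change was -0.91 with a standard error of 0.308 (limma adjusted p = 0.0255). The adjusted p was 0.102 after median centring of the libraries and 0.108 after quantile normalization, and 0.0536 and 0.0566 without control 3 and without control 5, so that none of these 4 fits called it.

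LINC00891 on chromosome X (71697196 to 71706455) had values of 6.67, 7.96, 7.50 and 8.15 in control 2 to 5, and of 4.47, 3.82, 3.90 and 4.18 in extract 1 to 4. The groups were clearly apart. The log2 change was -0.75 (limma adjusted p = 0.000177).

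LINC02577 on chromosome 7 (106774955 to 106838480) lies 26798 bases from PIK3CG, which codes for the gamma catalytic subunit of PI3-kinase and was not in the table. Control 2 to 5 had 5.87, 6.61, 6.25 and 6.72 and extract 1 to 4 had 3.28, 3.60, 3.39 and 3.41. It was among the most even members, and the mean fell from 6.36 ± 0.385 to 3.42 ± 0.133 (log2 change -0.74, limma adjusted p = 9.63e-05). LINC01003, also on chromosome 7 (152463786 to 152465549) and 27781 bases from the histone methyltransferase gene KMT2C, is the single-exon gene with the CpG-rich start printed above. It had 9.10, 11.39, 9.23 and 8.09 in control 2 to 5 and 5.71, 6.10, 5.08 and 4.66 in extract 1 to 4, with no overlap. The log2 change was -0.71 (limma adjusted p = 0.00101).

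Of the other large falls, LINC00964 (chromosome 8, 124848737 to 124954328) had 4.29, 3.09, 2.73 and 4.26 in control 2 to 5 and 2.05, 1.18, 2.06 and 1.66 in extract 1 to 4. LINC00431 (chromosome 13, 110965704 to 110990579), typed as a transcribed pseudogene, had 2.36, 3.30, 4.32 and 3.17 and then 1.74, 1.86, 1.53 and 1.41. LINC01517 (chromosome 10, 28743506 to 28941910), 60567 bases from BAMBI, a pseudoreceptor gene of TGF-beta signaling, had 4.91, 3.44, 4.92 and 4.04 and then 2.80, 1.75, 2.37 and 2.55. In all 3 genes the extract values lay below every control value, although control values spread widely. Their log2 changes were -0.74, -0.69 and -0.66 (limma adjusted p = 0.00421, 0.00347 and 0.00353). LINC00431 shares 310 bases at 99.7% identity with a transcript of TUBGCP3, so its reads may be partly shared.

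The remaining 10 tested genes with lower values had folds between 1.48 and 1.94, and 9 of them passed in limma. LINC02805 was next in level to LINC01088 and fell from 29.7 ± 0.959 to 19.1 ± 1.62. LINC00861, an RNA best known from lymphocytes, fell from 20.1 ± 1.37 to 13.1 ± 0.65. LINC01215 fell from 10.2 ± 0.343 to 6.25 ± 0.462 and LINC02163 from 8.73 ± 0.978 to 5.38 ± 1.33. LINC01138, best known from liver cancer cells, fell from 6.42 ± 0.447 to 4.34 ± 0.778 and had the smallest deposited change of the 63 (log2 fold change -0.59 in the authors' deposited table). LINC01419 fell from 1.28 ± 0.0499 to 0.662 ± 0.0665, and it too passed the filter through its control values alone. LINC00355, LINC02484 and LINC02505 also fell, with limma adjusted p = 0.00699, 0.0202 and 0.0333. Apart from LINC01138, these genes lie outside the naming rule and were chosen after their values were seen. The call of LINC02505 was lost in 5 of the 8 fits that left out 1 library (without control 3 or 5, or extract 1, 2 or 4). Over all 8 of these limma fits its adjusted p lay between 0.0178 and 0.0761. LINC02484 lost its call without extract 1 (adjusted p = 0.0516).

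Scaling mattered for several of these calls, and the libraries' medians over the 750 tested rows differed by -0.27 (log2) between extract and control. With median centring the calls of LINC00355, LINC01138, LINC01419, LINC02163, LINC02484 and LINC02505 were lost (limma adjusted p = 0.0525, 0.117, 0.0582, 0.0616, 0.263 and 0.407). With quantile normalization those of LINC00861, LINC02805, LINC02484 and LINC02505 were lost (adjusted p = 0.053, 0.445, 0.134 and 0.152). Both scalings rest on rows chosen as changed, most of them lower.

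**Figure D3:**
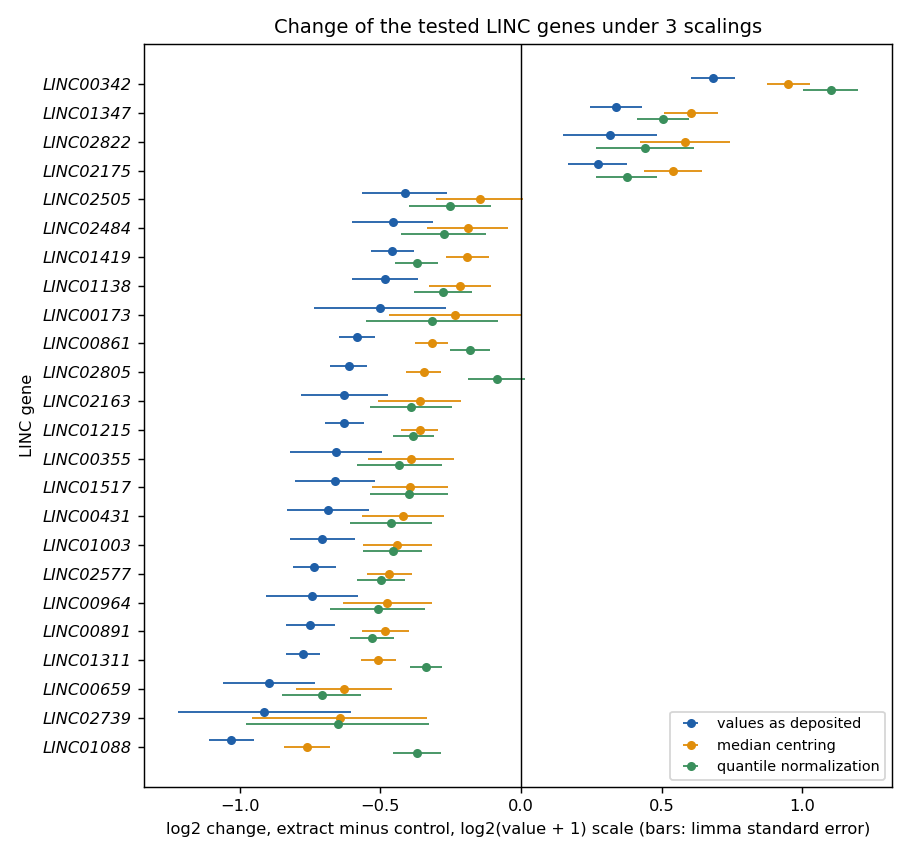
log2 change (extract minus control) of the 24 tested LINC genes on the log2(value + 1) scale with its limma standard error, for values as deposited, with median centring and with quantile normalization. All 20 lower genes stay left of 0 and all 4 higher genes right of 0 under the 3 scalings, while the 20 lie nearer to 0 with either scaling.

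LINC00173 is known from granulocytes and megakaryoblastic leukemia and was 1 of 2 listed genes, with LINC00861, from a fixed list of 16 LINC genes studied in blood cells or leukemia. It lies on chromosome 12 (116533422 to 116536518). Its values were 2.15, 1.29, 1.69 and 2.27 in control 2 to 5 and 0.47, 1.21, 2 and 0.62 in extract 1 to 4. Extract 3 was within the control range and the others were below it. The log2 change of -0.50 had a standard error of 0.235 and did not pass (limma adjusted p = 0.0751). It passed without extract 3 (adjusted p = 0.0137).

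Rises were fewer among the tested LINC genes. LINC00342 on chromosome 2 (95807118 to 95816215), 20704 bases from the ankyrin repeat gene ANKRD36C, had 10.47, 11.52, 12.69 and 13.16 in control 2 to 5. Extract 1 to 4 had 19.06, 18.91, 19.74 and 21.35, all above the controls. The mean rose 1.65-fold, from 12.0 ± 1.21 to 19.8 ± 1.12, and the log2 change was 0.68 with a standard error of 0.0785 (limma adjusted p = 0.000171). A transcript of AC092683.1 matches it at 96.7% over 2185 bases, so reads of these copies may be shared and the source of the rise between them is uncertain.

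LINC01347 on chromosome 1 (243056307 to 243101744), typed as a transcribed pseudogene, had 1.21, 1.27, 1.09 and 1.39 in control 2 to 5 and 1.64, 1.71, 1.87 and 2.11 in extract 1 to 4. The groups did not overlap, and the log2 change was 0.34 (limma adjusted p = 0.011). Transcripts of 22 other genes match it at 95% identity or more over at least 200 bases, so its value too is uncertain. LINC02175 on chromosome 16 (25066937 to 25068943) had 1.09, 0.70, 0.66 and 0.74 and then 1.34, 1.03, 1.24 and 1.05. Control 2 was above extract 2 and 4, and the extract values alone met the filter. Its log2 change of 0.27 passed (limma adjusted p = 0.0402), but it was not called without control 3, 4 or 5 or without extract 1, 3 or 4, and the 8 fits that each lacked 1 library had adjusted p-values from 0.0138 to 0.101. It also did not pass with a pseudocount of 0.1 (adjusted p = 0.052) or with no filter (adjusted p = 0.0608). LINC02822 had 0.92, 0.90, 0.89 and 1.07 in control 2 to 5 and 1.65, 0.70, 1.63 and 1.90 in extract 1 to 4. Extract 2 was below all controls and the others above, and the change was not called (limma adjusted p = 0.104). It passed without extract 2 (adjusted p = 0.00326) and with median centring (adjusted p = 0.0133).

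Near-identical copies were not limited to these genes. Transcripts of another gene matched 11 of the 62 annotated LINC genes at 95% identity or more over at least 200 bases, among them 8 of the tested ones. LINC00355 had such matches to 20 genes, and LINC01088, LINC01138, LINC01419 and LINC02163 to 3 each. For LINC01088 the longest was 220 bases.

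The 24 tested genes had a median coefficient of variation of 11.1% in control and 12.6% with the extract, and it was larger with the extract for 15 of them. The most uneven was LINC00173 (24.3% in control and 64.6% with the extract), followed with the extract by LINC00659 (51.2%) and LINC02739 (48.3%). LINC02577 (6.05% and 3.89%) and LINC00861 (6.83% and 4.98%) stayed under 7% in both groups, as did LINC01311 (4.85% and 5.96%).

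The other 39 LINC genes were below the filter, with mean values from 0.00875 to 0.884, and were not tested in limma. Of these, 19 had a higher and 20 a lower group mean with the extract. These low values behaved as values per transcript length. Among 56 rows with 1 annotated transcript that were at 0 in all controls and had a deposited fold change of 9 to 9.5, the summed extract value fell with transcript length (Spearman correlation -0.999 across rows, a description). Rows with nearly the same deposited fold change thus differed in value by their length. LINC00880 (2018 bases, 1 transcript) had a sum of 0.14 and LINC00898 (4185 bases) one of 0.07, at deposited fold changes of 9.19 and 9.22 in the authors' deposited table. Over all 84 such rows, those with several transcripts included, the Spearman correlation was -0.914. LINC01697 (7 transcripts, the longest of 1764 bases) had a sum of 0.51 at a deposited fold change of 9.20. Levels can therefore be compared between LINC genes only within the accuracy of their annotated lengths, and less surely for those with several transcripts. The deposited table gave no reads, so the depth behind a low value is unknown and no interval for counting error is given.

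**Figure D4:**
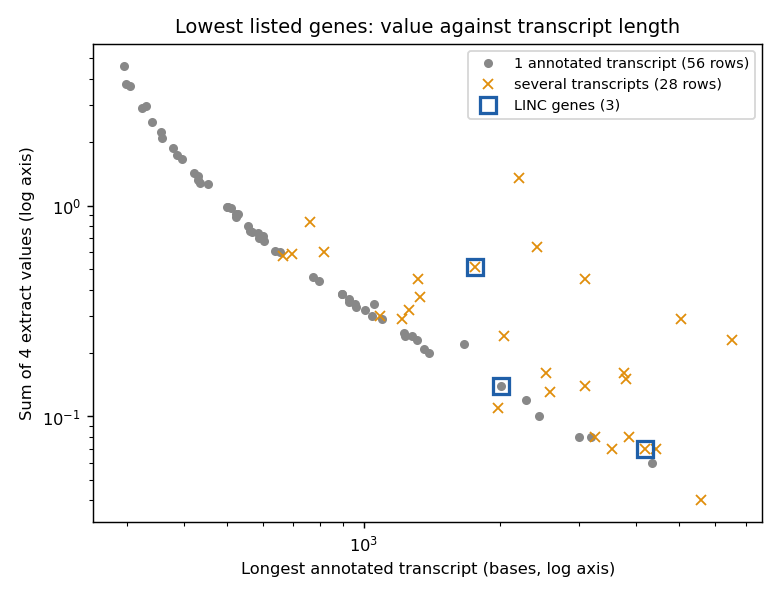
Sum of the 4 extract values against the longest annotated transcript, both on log axes, for rows at 0 in every control library with a deposited fold change of 9 to 9.5. Rows with 1 annotated transcript (grey) fall along a single descending curve, rows with several (orange) mostly lie on or above it, and blue squares mark LINC01697, LINC00880 and LINC00898 from left to right.

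Among the higher genes below the filter, LINC01963 (chromosome 2, 216217045 to 216220192), 10742 bases from the DNA repair gene XRCC5, had the highest mean. It had 0.37, 0.63, 0.61 and 0.67 in control 2 to 5 and 1.46, 0.88, 1.02 and 0.79 in extract 1 to 4, with no overlap. LINC01977 (chromosome 17, 79823452 to 79827704) had 0.40, 0.53, 0.36 and 0.56 and then 0.89, 0.76, 0.60 and 0.69, also without overlap. LINC01967 had 0.63, 0.50, 0.36 and 0.03 and then 1.45, 1.08, 0.79 and 0.45, and LINC00858 had 0.69, 0.54, 0.36 and 0.26 and then 1.26, 0.51, 0.70 and 0.82. In both of these the lowest extract value lay within the control range.

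For a pair of genes the group mean rested on few libraries. LINC01134, which starts beside C1orf174 on the opposite strand with 79 bases between them, had 0.09, 0.16, 0.19 and 0.02 in control 2 to 5 and 0.14, 1.64, 0.42 and 0.70 in extract 1 to 4. Extract 2 was highest and extract 1 within the control range. LINC00634 had 0.05, 0.10, 0.04 and 0.05 in control 2 to 5 and 2.09, 0.94, 0.38 and 0.10 in extract 1 to 4. Extract 1 was highest and extract 4 equalled control 3. For these genes the log2 fold change in the authors' deposited table was 1.91 and 2.08, at adjusted p-values of 0.00275 and 0.103.

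Among the lower genes below the filter, LINC02232 (chromosome 4, 64914281 to 65024485) had 1.07, 1.02, 0.86 and 1.20 in control 2 to 5 and 0.58, 0.06, 0.36 and 0.33 in extract 1 to 4. LINC00539 (chromosome 13, 21303515 to 21348721) had 0.76, 1.31, 0.69 and 1.02 and then 0.29, 0.33, 0.23 and 0.58. Neither overlapped between groups, and the means differed 3.12-fold and 2.64-fold. LINC02222 had 1.31, 1.61, 1.14 and 0.73 and then 0.44, 0.53, 0.53 and 0.78. LINC01099 had 0.97, 1.38, 1.10 and 0.45 and then 0.46, 0.72, 0.24 and 0.19, and LINC02515 had 1.31, 0.12, 1.31 and 1.03 and then 0.71, 0.36, 0.26 and 0.72. LINC00921, which overlaps ZNF263, had 0.68, 0.54, 0.90 and 0.95 and then 0.37, 0.67, 0.40 and 0.53. The last 4 overlapped between groups, and in LINC02515 control 3 was the lowest of all 8 values.

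**Figure D5:**
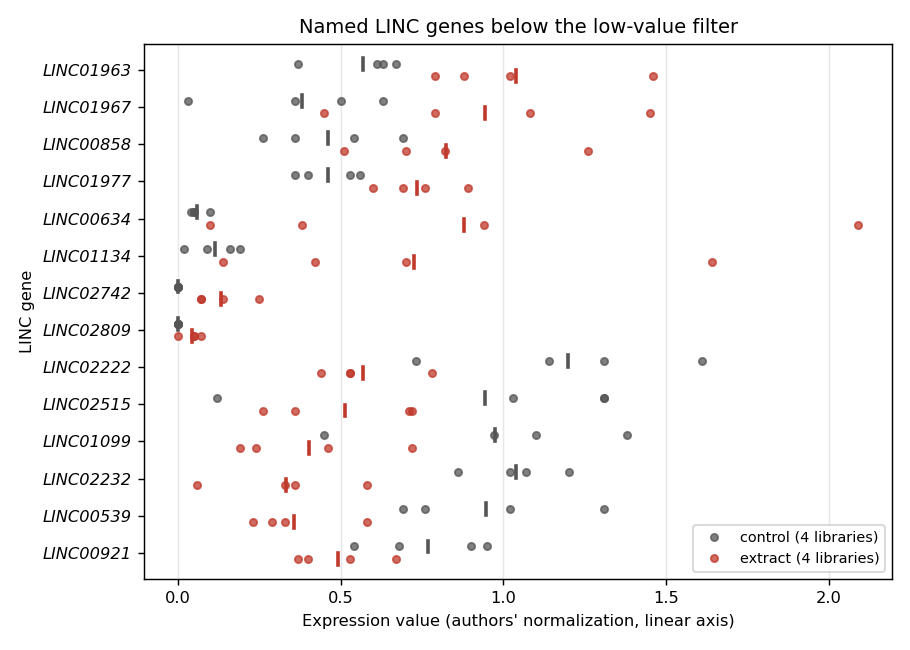
Expression values of the 14 named LINC genes below the filter in each control (grey) and extract (red) library on a linear axis, with a bar at each group mean. The first 8 genes from the top had higher and the other 6 lower means with the extract, and the wide red spread of LINC00634 and LINC01134 reaches from 0.10 to 2.09 and from 0.14 to 1.64.

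In 10 of the 63 LINC genes 1 group was listed at 0 in all 4 libraries (15.9%, where 21.1% of all rows were), 6 in control and 4 with the extract. No fold is given for these. LINC02742 was the 1 gene above 0 in every library of the other group, with 0.07, 0.14, 0.25 and 0.07 in extract 1 to 4. LINC02809 had 0.05, 0.07, 0.00 and 0.05. These 2 had the largest deposited log2 fold changes of the 63 (3.94 each in the authors' deposited table). Their means were 0.1325 and 0.0425 with the extract and 0 in control. LINC00898, LINC00907, LINC01697 and LINC00880 were also at 0 in control, and LINC02680, LINC00479, LINC01413 and LINC01915 at 0 with the extract. None of the mean values in the other group of these 10 was above 0.19. At the other end, 49 of the 63 were above 0 in all 8 libraries.

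The deposited change was not the plain ratio of means. Of the 53 LINC genes above 0 in both groups, 4 had a ratio of means under 1.5-fold although the deposited change was at least that large. The sign was the same for all 63. LINC00261, an RNA beside the endoderm factor gene FOXA2, had 0.01, 0.01, 0.01 and 0.02 in control 2 to 5 and 0.07, 0.10, 0.09 and 0.50 in extract 1 to 4. It was named after its values were seen, because its ratio of means was the largest of the 53 (15.2) while its deposited ratio was 5.44 in the authors' deposited table. Extract 4 alone made up most of that mean.

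Of the 62 placed LINC genes 7 had a listed protein-coding gene within 100 kb, as did 296 of the 1000 listed protein-coding genes, and 4 of these 7 pairs lay on the same side of control. For listed protein-coding genes the same count was 164 of 296 pairs (55.4%), and 7 LINC pairs are too few to compare with it. LINC00659 lay 40832 bases from COL9A3, a collagen gene, which also fell (1.85 ± 0.349 to 1.16 ± 0.432, limma adjusted p = 0.0408). LINC00921 lay 31265 bases from TIGD7, a gene derived from a transposase, which fell from 11.1 ± 0.812 to 6.97 ± 0.401 (limma adjusted p = 0.000221). LINC00891 and LINC00634 lay near GCNA and SHISA8, with means on opposite sides. GCNA had 0.487 ± 0.0885 in control and 0.735 ± 0.219 with the extract, and SHISA8 had 0.193 ± 0.158 and 0.01 ± 0.02, both below the filter. LINC02593, with means of 0.135 ± 0.0755 and 0.34 ± 0.103, lay 77946 bases from HES4, a target gene of Notch signaling, which fell from 11.3 ± 2.52 to 5.15 ± 0.60 (limma adjusted p = 0.00081). That pair was named after its values were seen.

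Few LINC genes lay near each other. LINC02805 and LINC01138 are 104259 bases apart on chromosome 1 and both fell, and LINC00861 and LINC00964 are 967980 bases apart on chromosome 8 and both fell. LINC02701 and LINC02754 on chromosome 11, 964314 bases apart, had lower and higher means.

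Higher and lower LINC genes were also described by sequence and position. The longest transcript had a median of 2664 bases in the 22 annotated higher genes and 1922 in the 40 lower ones. Median GC content was 50.2% and 45.3%, and the median gap to the nearest protein-coding gene 20362 and 23723 bases. The lower genes had a median value of 0.928 over the 8 libraries against 0.266 for the higher ones. These medians are descriptions with no test.

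Compared with other long noncoding classes of the table, LINC genes had a share of lower means above those of antisense and divergent genes. Lower means were found for 63.5% of the LINC genes, 51.4% of 74 antisense genes (names ending in -AS), 57.1% of 21 divergent genes (-DT) and 60.7% of 1000 protein-coding genes. The median log2 change of tested genes was -0.63, -0.50, -0.67 and -0.51 in that order. Only 3 snoRNA host genes, 3 intronic genes (-IT) and 2 microRNA host genes were listed. The difference between classes was not tested. By share of the annotation, 3.04% of the 1878 LINC names of GENCODE 29 were listed, against 5.01% of its 19951 protein-coding genes and 3.18% of all its 58735 genes.

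Of the machinery that acts on such RNAs little was in the table. None of 18 fixed genes of nuclear RNA decay, such as the exosome subunits, was listed (0). Of 20 fixed genes of Integrator and of 3′ end processing, INTS6 was listed and had a higher mean with the extract.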

How the data were processed

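HISAT2, StringTie and GRCh38 appear in the submitters' processing notes, without versions or roles. The deposited table gave 1 normalized expression value (treated as a score, since no source names its unit) per gene and library, with 2 decimals. The authors also deposited a fold change, which is extract divided by control (a ratio), the log2 of it, and p-values before and after adjustment. Which tool made these is not given in the sources used here. Depth is unknown. LINC genes were matched by name. The test was limma 3.58.1 in R 4.3.3 (trended, robust) on log2(value + 1), over all rows that reached a value of 1 in 4 or more of the 8 libraries, with Benjamini-Hochberg adjustment over these 750 rows and calls at 0.05. It was also run on simulated rows that, unlike these, were not selected for a difference, so that run lends the calls no support. Positions and transcripts came from GENCODE 29 (GRCh38), near-identical copies from blastn 2.17.0, promoters from RefSeq. Because LINC02822 was not in GENCODE 29, it has no position here.

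The members, lists and tests were chosen with earlier results of these data known. Values were given in full for the 10 largest rises and 10 largest falls among tested LINC genes (4 rises existed). Below the filter these were the 6 higher and 6 lower genes with the highest mean, and genes at 0 in 1 group and above 0 throughout the other. The genes with the 2 smallest and 2 largest deposited changes, and their nearest listed protein-coding gene within 100 kb, were added. Alternatives were another pseudocount, other filters, 2 scalings, plain moderation, a replicate block and leaving out each library.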

Additional observations from a re-analysis of the deposited data

Results flagged for a closer look

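In 4 of 76 groups of 4 libraries (each of the tested or named LINC genes, and the LINC sum) 1 library stood far off the remaining 3. By chance about 1 in 20 groups would, here 3.8. LINC00355 was highest in extract 1 (5.29, the others 3.01 to 3.26), and LINC02505 in extract 3 (1.85, the others 1.19 to 1.22). LINC02822 was highest in control 5 (1.07, the others 0.89 to 0.92), and LINC00634 in control 3 (0.1, the others 0.04 to 0.05). Their causes were not tested.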

How the results depend on the processing

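The 22 LINC calls (3 higher, 19 lower) became 34 (7 higher) without a filter and 32 (6 higher) with a filter at 0.5, where more genes are tested, and 16 (12 lower) with median centring. Of all rows tested, 82.8% were called, and 45.2%, 77.4% and 62.5% in these 3 fits. By direction, 201 of all 750 rows were called higher and 420 lower. Without a filter these were 314 and 567 of 1950 rows, and with a filter at 0.5 they were 263 and 514 of 1004. With median centring they were 228 and 241 of 750. The median log2 change of -0.63 became -0.79 with a pseudocount of 0.1, -0.36 with median centring and -0.37 with quantile normalization. Leaving out 1 library gave 19 to 22 calls, 2 to 4 higher and 17 to 20 lower (71.7% to 77.9% of all rows), and a median of -0.68 to -0.59. Over all 750 rows the fits lacking 1 library called 163 to 190 higher and 369 to 394 lower. No direction reversed among the 24 tested genes under any limma alternative run. Deviations of libraries with equal numbers correlated weakly (0.0754, 0.0754 and 0.149 for numbers 2, 3 and 4). The labels do not say whether equal numbers share a culture, and these correlations do not settle it. Among these 3 numbers each library correlated best with its own. With the replicate block on these 6 libraries 18 genes were called, 1 higher and 17 lower (68.7% of all rows). Of all 750 rows 161 were called higher and 354 lower with the block. The same 6 without the block, a fit added after the data were seen, also gave 18 (2 higher, 70.3% of all rows). Of all 750 rows that fit called 164 higher and 363 lower. The block lost the calls of LINC01347, LINC02175, LINC02484 and LINC02739 (limma adjusted p = 0.0507, 0.226, 0.11 and 0.107). LINC02739 was not called in the same 6 without the block either (limma adjusted p = 0.0896). Restricted to the tested genes, the counts of separated LINC genes were 19 in all and 2 above, and those of lower and higher means 20 and 4. With median ratio scaling 7 were separated below and 16 above. The difference in summed level, -81.8, was -56.5 without LINC01088, -4.20 with median ratio scaling and -73.8 at equal table sums (both added after the data were seen), and between -83.9 and -79.6 when 1 library was left out. Leaving out 1 library gave 36 to 39 separated genes, 25 to 27 below and 10 to 14 above. With fewer libraries such counts can only stay equal or grow. No share over all rows is given for these counts or for those restricted to the tested genes, so they are read as no result. The cause of the changes with scaling was not tested. Depth limits the low genes to an unknown extent.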
